A study of Mus musculus with 232 samples.

Results

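The genes described here are 8 mouse genes that make, salvage or remove deoxynucleotides, the building blocks of DNA: Rrm1, Rrm2, Rrm2b, Tyms, Tk1, Dut, Dck and Samhd1. They were taken by name from the 42493 genes of the deposited tables, and all 8 were among the 11227 genes that averaged 5 or more counts per cell. The data were single mouse embryonic stem cells (ESCs) captured on Fluidigm C1 chips 24 h after transfection. The cells compared were 60 mock-transfected Dgcr8-/- cells, 57 Dgcr8-/- cells given a miR-294 mimic, 45 Dgcr8-/- cells given a let-7 mimic and 16 wild-type (WT) cells, whose titles name the V6.5 line. DGCR8 is needed to process nearly all microRNAs (miRNAs), so the knockout, which the mock and both mimic groups carry, is a cell largely free of miRNAs into which a single miRNA can be put back. All groups were kept in DMEM with serum (15% FBS), LIF and the 2i inhibitors PD0325901 and CHIR99021, and Dharmafect 1 was the transfection reagent. Whether the WT cells also received the reagent is not given plainly in the sources used here. The let-7 mimic is called let-7i in the sample titles, let-7b in the series description and let-7c in the study's methods, and is written let-7 here. In the miR-294 group most cells are titled miRNA294_ and a few MIR_294_, and both were kept under the same genotype label.

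DNA synthesis needs all 4 deoxynucleotides. Ribonucleotide reductase makes them from ribonucleotides, with a large subunit encoded by Rrm1 and a small subunit encoded by Rrm2 in dividing cells or by Rrm2b, a p53 target that also works outside S phase. Tyms encodes thymidylate synthase, which makes dTMP from dUMP, and Dut encodes the dUTPase that supplies dUMP and keeps uracil out of DNA. Tk1 and Dck encode kinases that salvage deoxynucleosides, thymidine for Tk1 and deoxycytidine chiefly for Dck, and Samhd1 encodes a hydrolase that breaks down deoxynucleoside triphosphates. Rrm2, Tyms and Tk1 are classic cell cycle genes, with more transcript and protein around S phase, and mouse ESCs spend much of their short cycle in S phase.

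The study used 1 C1 chip for each condition and the labels name no separate cultures, so chip and condition cannot be told apart and each group stands as 1 sample. No test between groups was therefore made. Levels are given as CPM (the count of a gene divided by the total count of a cell or group, scaled to 1000000), either pooled (the counts of a gene summed over the cells of a group, divided by the summed total) or per cell. A difference is that of log2(pooled CPM + 1), and 2-fold or more is used as a fixed size, not as a test. Intervals are 95% intervals (exact Poisson for a pooled CPM, exact binomial for a share of cells) and cover counting error only, since PCR reads without molecular identifiers are not independent molecules.

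Total counts per cell ran from 513521 to 3979274, with group medians from 1307481 to 1574732. In 4 places, 3 in the let-7 group and 1 in the miR-294 group, cells with different numbers had near-identical counts (r of log2 CPM 0.98 to 0.991, against at most 0.704 for any other pair of cells). They were counted as 1 cell each, which took 182 numbered cells to 178. Of 50 cells sequenced in 2 runs, 1 let-7 cell and 1 WT cell had runs that differed as different cells do (r 0.478 and 0.498, against at least 0.969 for the other 48). The targeted gene, Dgcr8, was at a pooled 118 CPM in WT cells and at 35.2, 45.3 and 30.7 CPM in mock, miR-294 and let-7 cells, and gene totals do not show whether those reads came from outside the deleted part. Pluripotency markers were present in every group, with a summed CPM of 10 genes at a median of 5648 in WT, 5711 in mock, 6853 in miR-294 and 3403 in let-7 cells. The summed level of 8 fibroblast and of 6 primitive endoderm markers had a median of 0 in all 4 groups, with single cells up to 236 CPM. Their part in the results below was not tested.

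Per unit of transcript length, Tyms and Rrm2 were the most abundant members in mock cells. The mean FPKM was 291 ± 180.1 (SD over 60 cells) for Tyms, 251 ± 235 for Rrm2, 132 ± 139 for Tk1, 118 ± 80.7 for Rrm1 and 89.7 ± 67.9 for Dut. Samhd1 (20.3 ± 40.2), Dck (12.4 ± 22.3) and Rrm2b (8.74 ± 10) formed a lower tier on this FPKM scale. Neighbours within a tier differed by less than their spread over cells. In let-7 cells the order by mean FPKM was Tyms 185, Dut 105, Rrm1 59.2, Rrm2 51.4, Tk1 29, Samhd1 22.2, Rrm2b 14 and Dck 12.9. Rrm2 thus stood above Rrm1 in mock, miR-294 (308 against 87.5) and WT cells (309 against 131) and slightly below it in let-7 cells, where the difference between the means was smaller than the SD over cells of either gene (62.4 and 66.1).

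With let-7, 3 of the 8 genes had a pooled level at least 2-fold below that of mock cells, Rrm2, Tk1 and Rrm1, and none was 2-fold higher. Over all 11227 genes 9.41% were at least 2-fold lower and 15.7% at least 2-fold higher. Rrm2 was 5.36-fold and Tk1 4.32-fold lower, Rrm1 lay at the threshold with 2.01-fold, and Tyms was 1.62-fold lower. Rrm2b and Samhd1 were each 1.72-fold higher in pooled CPM, Dck 1.24-fold and Dut 1.14-fold higher. The median difference of the 8 genes was -0.26 on the log2 scale, against 0.10 over all genes.

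**Figure D1:**
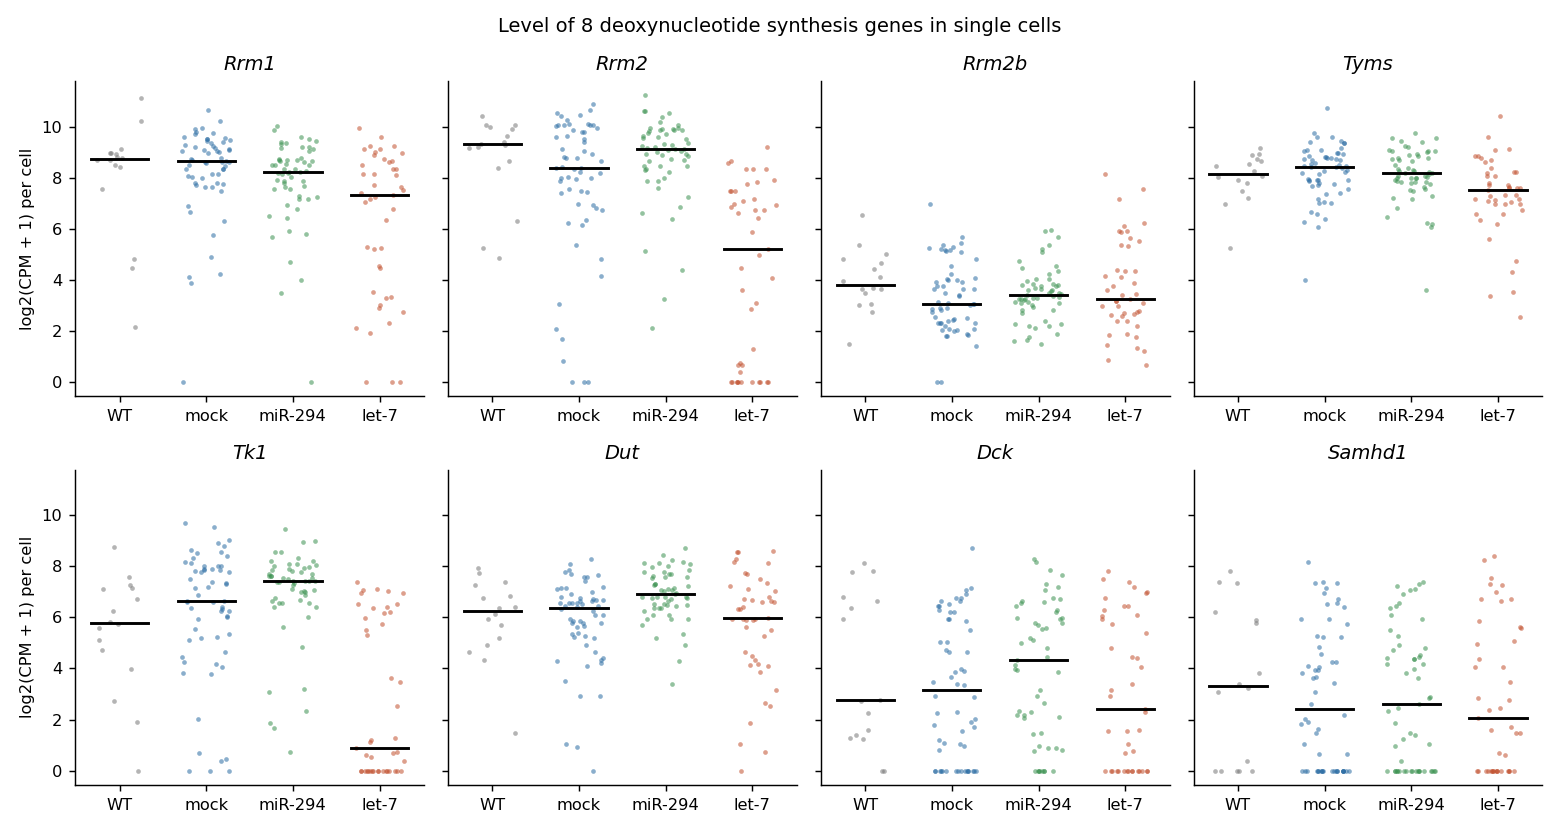
Level of each of the 8 genes in every cell, as log2(CPM + 1), by group (16 WT, 60 mock, 57 miR-294 and 45 let-7 cells). Each point is a cell and each bar the group median; in let-7 cells the median of Rrm2 and of Tk1 lies below that of the other groups, and many cells sit at 0.

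Rrm2, the small subunit of the reductase in cycling cells, had the largest difference in pooled CPM between let-7 and mock cells. With DESeq size factors it and Tk1 were both at -2.24 on the log2 scale. By medians over cells the difference of Tk1 was larger (-5.74 against -3.19). The let-7 median of Tk1 (0.857 CPM) lay below the pseudocount of 1 CPM, so the size of that value depends on the pseudocount. The level of Rrm2 ran from 0 to 1878 CPM with a median of 332 in mock cells, from 3.27 to 2389.7 with a median of 554 in miR-294 cells, from 27.8 to 1365 with a median of 636 in WT cells, and from 0 to 582 with a median of 35.5 in let-7 cells. The groups overlapped, but 42 of 45 let-7 cells lay below the mock median and 0 above the mock upper quartile (902 CPM). Pooled over cells, Rrm2 was at 516 CPM (interval 512 to 521) in mock and 95.5 CPM (93.3 to 97.6) in let-7 cells, a difference of -2.42 on the log2 scale. It was counted in 34 of 45 let-7 cells (75.6%, 60.5 to 87.1) and in 57 of 60 mock cells (95%, 86.1 to 99.0). With every cell thinned to 500000 counts, these shares were 71.1% and 91.7%.

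Rrm2 was also the only member whose 3′ UTR held a match to the let-7 seed, the bases 2 to 8 through which a miRNA mainly recognises its targets. The mature sequences of the miRNAs named for the mimics follow from RefSeq (GRCm38.p6), with the seed in capitals, to show that the let-7 names share a seed and miR-294 has another.
let-7b-5p: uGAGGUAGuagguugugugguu
let-7c-5p: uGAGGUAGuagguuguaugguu
let-7i-5p: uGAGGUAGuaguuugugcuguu
miR-294-3p: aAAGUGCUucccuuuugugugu
The 3′ UTRs of the members (Gencode M21, GRCm38, the transcript with the longest coding sequence of each gene) held 1 match to the let-7 seed and 2 to the miR-294 seed, each printed here on the strand of the gene with the match in capitals.
Rrm2 (let-7): aaagctgtgtagCTACCTCagtcctgtttg
Rrm2b (miR-294): ctttttgtcataAGCACTTaagatggcatt
Tyms (miR-294): acttcaggtagaAGCACTTgcagtccctca
The Rrm2 match lies at chr12:24713362-24713368 on the plus strand, at base 130 of a 3′ UTR of 914 bases, and is followed by an A. The Rrm2b match lies at chr15:37926865-37926871 on the minus strand, at base 374 of 3293, and is also followed by an A. The Tyms match lies at chr5:30060532-30060538 on the minus strand, at base 458 of 2169, and is followed by a G. The 3′ UTRs of Rrm1, Tk1, Dut, Dck and Samhd1 held neither word, which says nothing of other kinds of site.

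A let-7 seed match (CTACCTC, in the sense strand) was present in 8.03% of 20588 genes with an annotated 3′ UTR, and a miR-294 match (AGCACTT) in 13.2%. Among the genes with sufficient counts, 21.6% of 965 genes with the let-7 match were at least 2-fold lower in let-7 than in mock cells, compared with 8.30% of 9239 genes without it. Rrm2 was 1 of those 965 genes, and Tk1 and Rrm1 were not. For miR-294 the corresponding shares in miR-294 against mock cells were 20.5% of 1645 genes with the match and 11.7% of 8559 without it, and neither Rrm2b nor Tyms was among the genes 2-fold lower. The study removed transfected cells that lacked lower levels of listed miRNA targets, and its lists hold Rrm2 for let-7 and Rrm2b for miR-294. The let-7 cells were thus selected in part on a measure to which Rrm2 contributed. Listed targets include genes with a seed match, so the shares of genes with a match also come from cells selected in part on such genes.

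Tk1, the thymidine kinase of the salvage route, split the let-7 cells. Its level ran from 0 to 832 CPM with a median of 98.6 in mock cells and from 0 to 166 with a median of 0.857 in let-7 cells. The upper quartile of the let-7 cells was 71.1 CPM, so some let-7 cells held Tk1 at a level common in mock cells and most held nearly none. Tk1 was counted in 28 of 45 let-7 cells (62.2%, 46.5 to 76.2) and in 57 of 60 mock cells (95%, 86.1 to 99.0), or 46.7% and 90% with cells thinned to 500000 counts. Of the let-7 cells, 39 of 45 lay below the mock median and 0 above the mock upper quartile (242 CPM). The pooled level was 164 CPM (161 to 166) in mock and 37 CPM (35.7 to 38.4) in let-7 cells, a difference of -2.11 on the log2 scale.

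**Figure D2:**
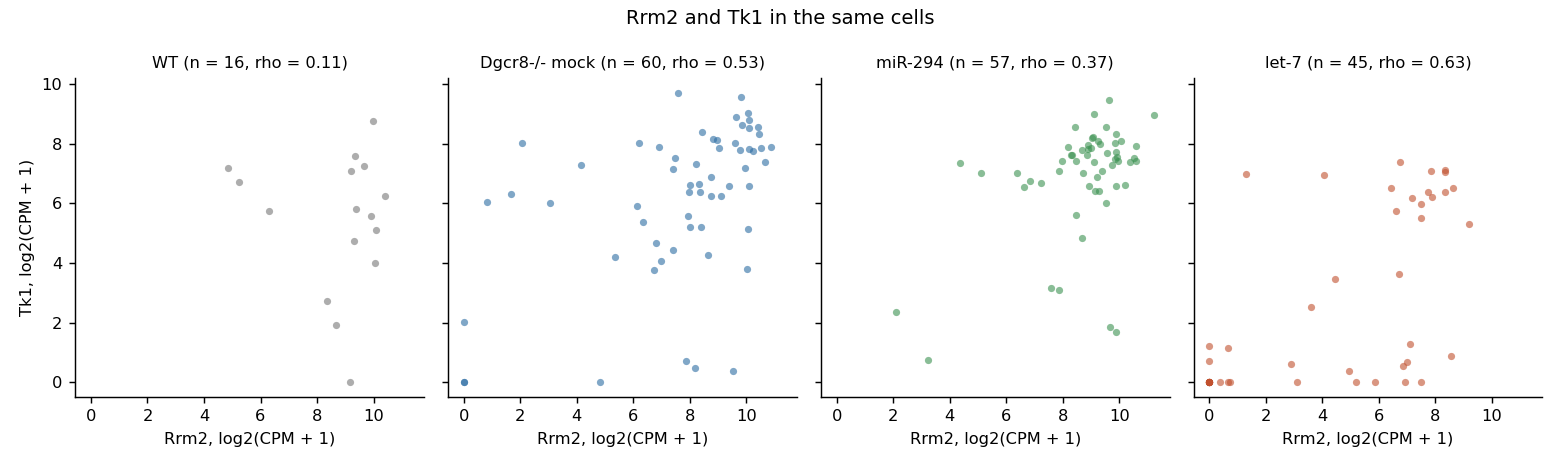
Rrm2 (x axis) and Tk1 (y axis) in the same cells, both as log2(CPM + 1), in a panel for each group with the number of cells and Spearman's rho. In the let-7 panel 13 of 45 cells lie below 1 CPM for both genes; in the mock panel 2 of 60 do.

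Most let-7 cells nearly without Rrm2 were also nearly without Tk1, but some low in Tk1 held Rrm2. Below 1 CPM were 15 let-7 cells for Rrm2 and 23 for Tk1, and 13 cells were below it for both, while in mock cells the numbers were 4, 6 and 2. In miR-294 and WT cells no cell was below 1 CPM for Rrm2 and 1 in each group was for Tk1. Across cells, Spearman's rho between Rrm2 and Tk1 was 0.63 in let-7 (n = 45), 0.53 in mock (n = 60), 0.37 in miR-294 (n = 57) and 0.11 in WT cells (n = 16). This was the highest rho of any pair of members in let-7 cells and in mock cells. The cells of a group share a chip and differ in depth, so these values are a description.

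The large subunit and thymidylate synthase were lower to a smaller degree. Rrm1 ran from 0 to 1625 CPM with a median of 401 in mock cells and from 0 to 987 with a median of 160.3 in let-7 cells. Of the let-7 cells, 35 of 45 were below the mock median and 27 below the mock lower quartile (220.3 CPM), while 2 were above the upper quartile. The pooled levels were 444 CPM (440.1 to 448) and 221 CPM (218 to 224), a difference of -1.0 on the log2 scale that passed or missed 2-fold with the cells, scaling or pseudocount used. Leaving out each cell in turn, it was under 2-fold for 46 of 105 cells left out. Without the second cell of each near-identical pair it was -0.99, and without the 2 cells whose runs differ it was -1.06.

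Tyms was counted in every cell of all 4 groups. It ran from 15.1 to 1709 CPM with a median of 343 in mock cells and from 4.84 to 1364 with a median of 184 in let-7 cells, and 36 of 45 let-7 cells lay below the mock median. Pooled, it was at 363 CPM (359.6 to 367) and 223 CPM (220.1 to 227), a difference of -0.70 on the log2 scale. Part of the sequence of Tyms is shared with a pseudogene, Tyms-ps (9.82% of its 31-base words occur in transcripts of other genes), and part of Rrm2 with the predicted gene Gm48455 and others (12%), so reads could be split between them.

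For the remaining members the let-7 median lay within the middle quartiles of the mock cells. Dut, the dUTPase, had medians of 82.1 CPM in mock and 62.2 in let-7 cells, and pooled levels of 87.1 (85.3 to 88.9) and 99.1 CPM (96.9 to 101). Dck, the deoxycytidine kinase, had medians of 7.94 and 4.29 CPM and pooled levels of 39 (37.8 to 40.2) and 48.4 CPM (46.9 to 50). For both genes the pooled level was higher and the median lower in let-7 cells. Samhd1, the dNTP hydrolase, had the same pattern, with pooled levels of 27.1 (26.1 to 28.1) and 47.2 CPM (45.7 to 48.7) and medians of 4.34 and 3.19 CPM. It was counted in 29 of 45 let-7 and 39 of 60 mock cells (64.4% and 65%).

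Rrm2b, the alternative small subunit, was low but counted in all 45 let-7 cells and 58 of 60 mock cells. Its medians were 7.37 CPM in mock and 8.55 in let-7 cells, and its pooled levels 15.3 (14.6 to 16.1) and 27.1 CPM (26 to 28.3). Single cells weighed on the pooled value, since the highest let-7 cell (280.1 CPM) gave 20.9% of the group's counts. Of the let-7 cells, 17 of 45 lay above the mock upper quartile (15.5 CPM) and 9 below the lower quartile (3.96 CPM).

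**Figure D3:**
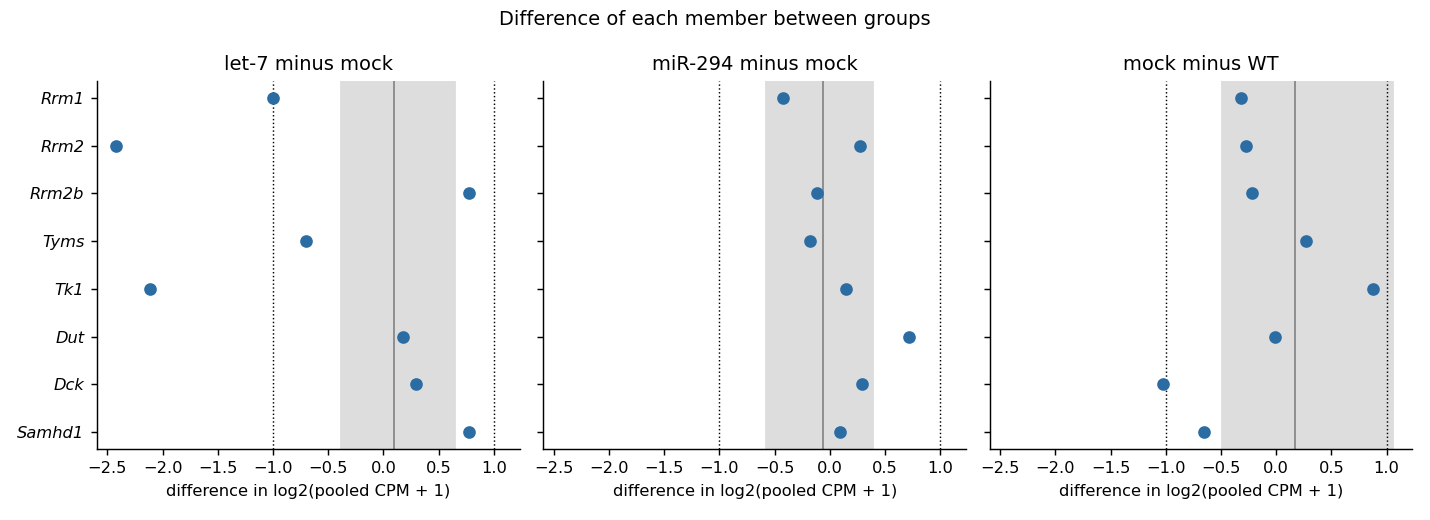
Difference of each gene between groups in log2(pooled CPM + 1), for let-7 minus mock, miR-294 minus mock and mock minus WT. The grey line and band are the median and the middle quartiles over 11227 genes and the dotted lines mark 2-fold; Rrm2 and Tk1 lie farthest left with let-7, at -2.42 and -2.11.

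With miR-294, no member was 2-fold lower or higher than in mock cells, where 13.4% of all genes were at least 2-fold lower and 6.91% at least 2-fold higher (18.1% and 4.50% with DESeq size factors). The member with the largest difference was Dut, which was 1.64-fold higher. Dut ran from 9.59 to 426 CPM with a median of 118 in miR-294 cells, against 0 to 308 with a median of 82.1 in mock cells, and 42 of 57 miR-294 cells lay above the mock median and 29 above its upper quartile (113 CPM). The pooled level was 144 CPM (141 to 146) against 87.1 CPM in mock and 87.5 CPM (83.8 to 91.3) in WT cells.

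Rrm2 and Tk1 differed little in pooled level between miR-294 and mock cells, at 624 against 516 CPM and 181 against 164 CPM, and the small difference of Tk1 changed sign with DESeq size factors (-0.06 instead of 0.15). They differed more in the low end of the cells. The lower quartile of Rrm2 was 324 CPM in miR-294 and 117 in mock cells, and that of Tk1 was 97.7 and 35.4 CPM. For each of the 2 genes 42 of 57 miR-294 cells lay above the mock median, and both were counted in all 57 cells. Rrm1 was 1.34-fold lower (331 against 444 CPM), with 37 of 57 cells below the mock median, and Tyms 1.13-fold lower (322 against 363 CPM). Rrm2b, Dck and Samhd1 were at a pooled 14, 47.8 and 28.8 CPM, which is 1.09-fold lower, 1.22-fold higher and 1.06-fold higher than in mock cells. The median of Rrm2b was instead higher, at 9.60 against 7.37 CPM, and 41 of 57 miR-294 cells lay above the mock median. Leaving out each cell in turn, the difference of Rrm2b reached 0.00 without 1 mock cell, and that of Samhd1 changed sign for 5 of 117 cells.

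The spread between cells moved in different directions in the mimic groups. The coefficient of variation of Rrm2 over cells was 0.938 in mock, 1.30 in let-7 and 0.723 in miR-294 cells, and that of Tk1 was 1.06, 1.47 and 0.718. For 7 of the 8 members it was higher in let-7 than in mock cells (Dck was the other, 1.5 against 1.77), compared with 50.9% of all genes. For 7 of the 8 it was lower in miR-294 than in mock cells (Rrm1 was the other, 0.694 against 0.691), compared with 63% of all genes. The mean levels moved as well, and the part of the level in these values was not tested.

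In the comparison of mock Dgcr8-/- with WT cells, Dck alone was past 2-fold, being 2.05-fold lower in mock cells, and no member was 2-fold higher. Over all genes 11.8% were at least 2-fold lower and 26% at least 2-fold higher in mock cells. The pooled level of Dck was 80.8 CPM (77.3 to 84.5) in WT and 39 CPM in mock cells, but a single cell gave 36.8% of the WT counts, without which Dck was 1.5-fold lower, and the medians were 5.72 and 7.94 CPM. Tk1 was 1.84-fold higher in mock cells (164 against 88.4 CPM), or 2.52-fold without the WT cell that gave 31.9% of the WT counts. Samhd1 was 1.57-fold lower (27.1 against 43.1 CPM), or 1.24-fold without the WT cell that gave 25.6% of its WT counts. In pooled CPM, Rrm1, Rrm2, Rrm2b, Tyms and Dut differed by at most 1.25-fold. Rrm1 was at 553 and 444 CPM and Rrm2 at 621 and 516 CPM in WT and mock cells. By medians over cells, Rrm2 and Rrm2b were lower in mock cells by more, at -0.93 and -0.75 on the log2 scale. For each of these genes 12 of 16 WT cells lay above the mock median. By medians Rrm1, Tyms and Dut differed by -0.08, 0.27 and 0.13. For Rrm1 a single cell (2254 CPM) gave 36.9% of the WT counts, and without it the pooled direction turned, mock cells being 1.16-fold higher. The pooled difference of Dut was -0.01 and changed sign on leaving out 28 of the 76 cells in turn.

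Set against WT cells, which hold their own miRNAs, the levels in miR-294 cells were 1.00-fold for Rrm2, 2.04-fold higher for Tk1, 1.63-fold higher for Dut and 1.67-fold lower for Rrm1. In let-7 cells Rrm2 was 6.45-fold, Rrm1 2.50-fold and Tk1 2.35-fold lower than in WT cells. Without those single WT cells, Rrm1 was 1.73-fold and Tk1 1.72-fold lower in let-7 cells, both under 2-fold, and Tk1 was 2.79-fold higher in miR-294 cells. Between the mimics, let-7 cells had 6.48-fold less Rrm2 and 4.79-fold less Tk1 than miR-294 cells, and 1.87-fold more Rrm2b. These comparisons reuse the same cells and are values side by side.

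Because several members follow the cell cycle, their levels were read within predicted phases. Phases came from cyclone, which scores pairs of marker genes, and pairs with a member were left out. With let-7, 62.2% of cells were called G1, 20% S and 17.8% G2M, compared with 40%, 46.7% and 13.3% of mock cells and 19.3%, 47.4% and 33.3% of miR-294 cells. Of the WT cells 14 of 16 were called S, the call given when neither the G1 nor the G2M score passes 0.5. In all, 2 let-7, 3 mock, 6 miR-294 and 1 WT cell had a deciding score within 0.1 of the 0.5 limit.

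**Figure D4:**
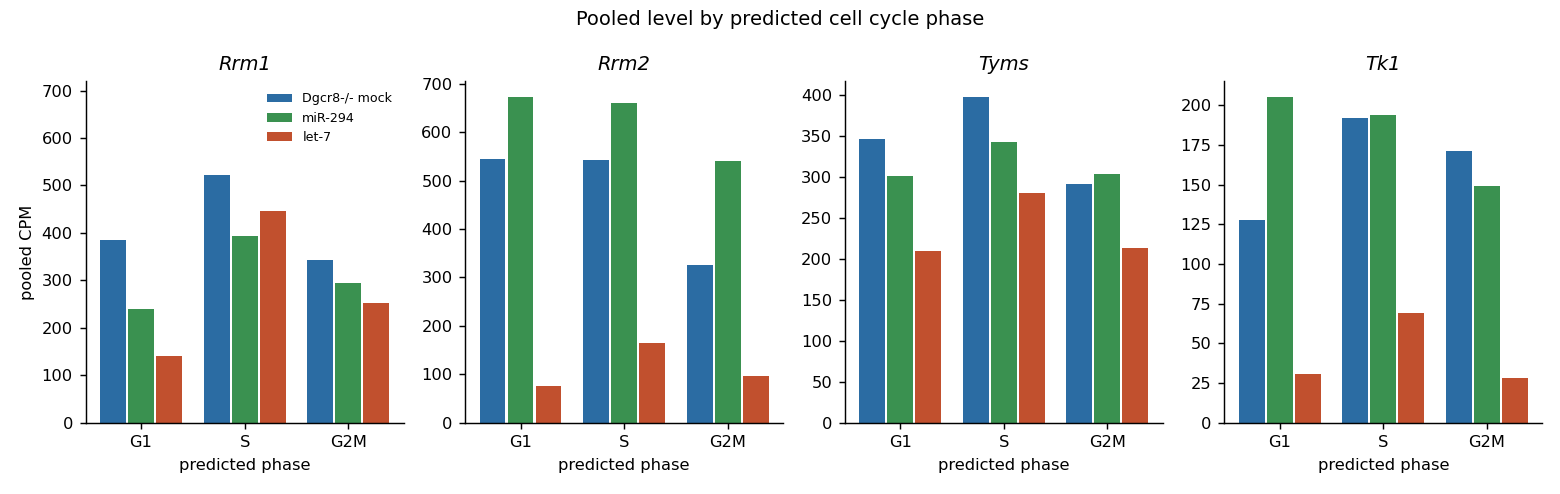
Pooled CPM of Rrm1, Rrm2, Tyms and Tk1 (bars, y axis from 0, a separate scale for each gene) in mock, miR-294 and let-7 cells by predicted phase. The let-7 bar of Rrm2 and of Tk1 is below the mock bar in all 3 phases, and that of Rrm1 is farthest below in G1 (141 against 385 CPM).

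Rrm2 and Tk1 were lower with let-7 in each predicted phase. For Rrm2 the pooled levels in mock and let-7 cells were 544 and 75 CPM in G1 (24 and 28 cells), 543 and 164 CPM in S (28 and 9 cells), and 325 and 95.6 CPM in G2M (8 cells each). The log2 differences were -2.84, -1.73 and -1.76. For Tk1 they were -2.04, -1.46 and -2.57, with let-7 levels of 30.5, 69.3 and 28 CPM. Of the 15 let-7 cells with Rrm2 below 1 CPM, 14 were called G1 and 1 S, and of the 23 with Tk1 below it, 17 were called G1, 3 S and 3 G2M.

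The pooled difference of Rrm1 varied by phase. On the log2 scale it was -1.44 between let-7 and mock cells in G1, where the pooled levels were 141 and 385 CPM. It was -0.22 in S (447 and 522 CPM) and -0.43 in G2M (253 and 342 CPM). By medians Rrm1 was clearly lower in G2M as well, at 170.5 and 386 CPM (8 cells each), next to 58.5 and 274 CPM in G1 and 426 and 543 CPM in S. In pooled CPM Tyms was lower by similar amounts in all phases, at -0.72, -0.50 and -0.45. Its medians in let-7 against mock cells were 142 against 265 CPM in G1, 210.0 against 422 CPM in S and 188 against 318 CPM in G2M. Over all genes, with fewer cells in each phase, 13.6%, 19.1% and 19.6% were at least 2-fold lower in let-7 cells called G1, S and G2M. In pooled CPM Samhd1 changed direction, from 58.4 against 20.6 CPM in G1 to 9.19 against 34.3 CPM in G2M (let-7 against mock, 8 cells each in G2M). Its medians did not change direction between these phases, at 3.22 against 0 CPM in G1 and 12.7 against 3.04 CPM in G2M. Dck changed direction in pooled CPM from 30.5 against 57.8 CPM in G1 to 66 against 20.9 CPM in S.

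Of the 5 genes most like Rrm2 across single cells, 3 (Uhrf1, Cdc6 and Mcm4) are in the replication list used further on, which holds 34 genes. By the mean of rho within mock, let-7 and miR-294 cells, over 7340 genes counted in at least 50% of cells, the nearest were Uhrf1 (0.61), a factor of maintenance DNA methylation, Tk1 (0.51), Cdc6 (0.47) and Mcm4 (0.46), which load and form the replicative helicase, and Tipin (0.46), which protects the replication fork. Uhrf1 reached 0.74 in mock, 0.54 in let-7 and 0.56 in miR-294 cells. For Tk1 the nearest were Rrm2 (0.51), Tuba1b (0.45), Ckb (0.40), Uhrf1 (0.40) and Pgam1 (0.39).

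Neighbours were sought for 5 members, and Rrm1, Tyms and Dut had none above 0.37. For Rrm1 the nearest were Ssrp1 (0.37), Lbr (0.35), Melk (0.34), Timeless (0.34) and Rpf2 (0.33). For Tyms they were Rbbp4 (0.34), Prim1 (0.33), Ppil1 (0.33), Cenpw (0.32) and Aifm1 (0.31), and for Dut they were Ddt (0.30), Hist1h2ap (0.30), Ece2 (0.29), Cox5a (0.29) and Gtsf1l (0.29). Correlations of this size in sparse counts are no finding. Over the 10 pairs among Rrm1, Rrm2, Tyms, Tk1 and Dut the median rho was 0.17 in mock and in let-7 cells and 0.07 in miR-294 and in WT cells.

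**Figure D5:**
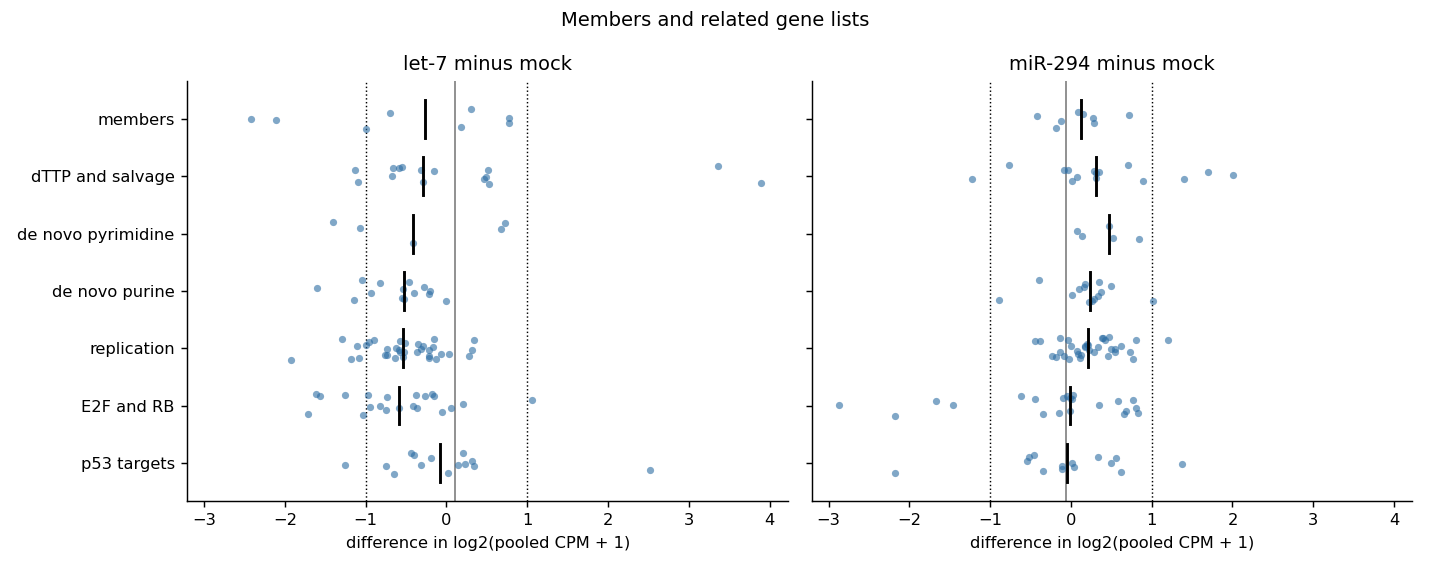
Difference of the 8 members and of the genes of 6 related lists in log2(pooled CPM + 1), for let-7 minus mock and miR-294 minus mock. Each point is a gene that averaged 5 or more counts per cell, black bars are list medians, the grey line is the median over all genes and dotted lines mark 2-fold. With let-7, 30 of 34 replication genes lie below 0, with a list median of -0.54 against 0.10 over all genes.

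The counts of listed genes in let-7 against mock cells stand beside 9.41% of all genes at least 2-fold lower and 15.7% higher. The share of all genes below 0 was not counted. Over all genes the median difference was 0.10 and the middle quartiles ran from -0.38 to 0.65, so many genes outside the lists also lay below 0. Of 15 measured genes of dTTP supply and salvage, 2 were at least 2-fold lower, Shmt1 (37 against 81.9 CPM), which supplies the folate unit used by thymidylate synthase, and Dctd (30.3 against 65.5 CPM), the dCMP deaminase. The 2 that were at least 2-fold higher were counted in few cells. These were Tk2, the mitochondrial thymidine kinase (67.5 against 5.67 CPM, in 19 of 45 let-7 and 14 of 60 mock cells, with 59.7% of the mock counts in 1 cell), and Cmpk2 (14.3 against 0.0287 CPM, in 3 let-7 cells and 1 mock cell). The list median was -0.29. Dtymk, which phosphorylates dTMP, was at 118 against 173 CPM.

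In the making of ribonucleotides, 2 of 5 pyrimidine genes were at least 2-fold lower with let-7, Cad (58.4 against 123 CPM) and Dhodh (16.3 against 44.7 CPM), and none was higher. Of 14 purine genes, 3 were at least 2-fold lower, Gart (85.6 against 262 CPM), Pfas (237 against 524 CPM) and Adsl (106 against 220.5 CPM). In this list 13 had a difference below 0, with a list median of -0.53 against 0.10 over all genes.

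Of 34 replication genes, 6 were at least 2-fold lower with let-7, namely Cdc6 (34.7 against 134 CPM), Pola1, Prim1, Mcm2, Ung and Mcm3, and none was higher, with a list median of -0.54. Pola1 and Prim1 encode subunits of the priming polymerase and Ung the glycosylase that removes uracil from DNA. Of 21 genes of the E2F and RB pathway, which drives transcription at the start of S phase, 5 were at least 2-fold lower, E2f2, E2f6, E2f7, Ccnf (52.2 against 163 CPM) and Cdc25a (24.8 against 51.7 CPM), and 1 was higher, Tfdp2 (103 against 48.8 CPM). Ccnf encodes cyclin F, known for marking the RRM2 protein for destruction. E2f2, E2f6 and E2f7 were low, each at 18.2 CPM or less in mock cells. The p53 list of 14 measured genes holds targets of p53, the group to which Rrm2b belongs, and Trp53, the gene of p53 itself. In this list Sesn1 (5.80 against 15.3 CPM) was at least 2-fold lower and Perp (114 against 19.1 CPM) at least 2-fold higher. The list median was -0.08. Of the 10 pluripotency markers, Nanog (139 against 455 CPM) and Sall4 (145 against 727 CPM) were at least 2-fold lower. All 10 were below 0, with a list median of -0.69 against 0.10 over all genes. Gata4 was the single primitive endoderm marker with sufficient counts and was at 10.3 against 1.76 CPM, with 97.3% of the let-7 counts in 1 cell.

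With miR-294, the medians of the 6 related lists ran from -0.05 to 0.47, and 13.4% of all genes were at least 2-fold lower and 6.91% higher. In dTTP supply and salvage, Shmt1 (268 against 81.9 CPM), Shmt2 (214 against 80.8 CPM) and Tk2 (25.8 against 5.67 CPM) were at least 2-fold higher and Cmpk1 (32.2 against 76.6 CPM), a UMP and CMP kinase, at least 2-fold lower, with a list median of 0.31. Shmt1 was thus below mock in let-7 cells and above it in miR-294 cells. No pyrimidine gene passed 2-fold (list median 0.47), Prps1 (150.2 against 73.3 CPM) was the only purine gene to do so (0.24), and Orc1 (159.8 against 68.8 CPM) the only replication gene (0.20), all higher. In the E2F and RB list E2f2, E2f7, Rbl2 (3.98 against 35.4 CPM), an RB family member, and Cdkn1a (44.5 against 206 CPM), which encodes the inhibitor p21, were at least 2-fold lower and none was higher (list median -0.01). In the p53 list Cdkn1a was lower and Aen (115 against 43.4 CPM) higher (list median -0.05), and of the pluripotency markers Utf1 (124 against 46.8 CPM) was higher.

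In mock against WT cells, the list medians were 0.06 for dTTP supply and salvage, -0.52 for pyrimidine, -0.17 for purine and -0.23 for replication genes, next to -0.24 for the members and 0.17 over all genes. For the E2F and RB list the median was 0.71, with 4 of 21 genes at least 2-fold lower and 7 at least 2-fold higher. For the p53 list, with Trp53 in it, the median was 0.53, with 5 of 14 at least 2-fold higher. Over all genes 11.8% were at least 2-fold lower and 26% higher.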

How the data were processed

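Single-cell libraries (Fluidigm C1, Nextera XT) were sequenced in 232 runs of 182 numbered cells. Per the labels and the study's methods, the authors assigned reads to Gencode M4 genes with RSEM 1.2.19 (version from the submitters' processing notes) and deposited an expected count per gene, unnormalized, together with an FPKM scaled for length and depth. The authors had left out shallow libraries, libraries dominated by few genes, and transfected cells without lower miRNA targets.

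Here counts were added over runs to give 1 value per cell and then rounded. Gene symbols came from a table of gene identifiers, which matched 41674 of 42493. Pooled CPM, a pseudocount of 1 CPM and a fixed 2-fold size were used. FPKM served to compare genes with each other and, as mean FPKM, as an alternative setting for differences between groups. DESeq size factors, from 864 genes counted in every cell, were used for Spearman correlations. Phases came from cyclone in scran 1.30.0 (R 4.3.3) with 28388 of 28492 marker pairs, after pairs holding Rrm1, Rrm2 or Tyms were removed, and TMM factors from edgeR 4.0.16. Other steps used Python 3.11.15, pandas 2.3.3, numpy 2.4.6, scipy 1.17.1 and matplotlib 3.10.9, and the script for pooled differences was checked on simulated counts. Seed matches were searched in 3′ UTRs of Gencode M21, on the same GRCm38 assembly. All 8 members, the listed genes past 2-fold with either mimic, and the 5 genes nearest in rho were named. The members and lists were chosen with earlier results of these data known, and the count of coefficients of variation and the leaving out of single cells were added after values were seen.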

Additional observations from a re-analysis of the deposited data

How the results depend on the processing

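No paired analysis was possible because the results come from no test, cell numbers only name cells of a chip, and the rep numbers in the titles mark runs of 1 cell. Each group is 1 chip, so no value here carries an error between cultures. Rrm2 and Tk1 were at least 2-fold lower in let-7 than in mock cells under every alternative tried, with log2 differences from -3.19 to -2.24 and from -5.74 to -2.0 outside the phase splits (most negative with medians over cells). Rrm1 ran from -1.32 to -0.92. The 3 members lower (Rrm1, Rrm2, Tk1) became 2, without Rrm1, with DESeq size factors, means over cells, mean FPKM, a pseudocount of 5, first runs only, in S cells and without the second cell of each near-identical pair, and 4 with a 1.5-fold limit (Tyms added). In G2M cells the 3 were Rrm2, Tk1 and Samhd1 (-1.79), although the Samhd1 median there was higher in let-7 than in mock cells. In let-7 against mock cells, the count of members at least 2-fold higher was 0, but 1 with DESeq size factors or first runs only (Rrm2b) and in G1 cells (Samhd1), and 2 in S cells (Rrm2b, Dck) and with a 1.5-fold limit (Rrm2b, Samhd1). In miR-294 against mock cells, where no member passed 2-fold, 1 was higher with medians over cells (Dck), a 1.5-fold limit (Dut), in G1 cells (Dut) and in S cells (Dck), and 1 was lower in G2M cells (Samhd1). In mock against WT cells, the 1 member lower (Dck) became 0 with DESeq size factors, means or medians over cells, mean FPKM, a pseudocount of 5 or first runs only, and 2 with a 1.5-fold limit (Dck, Samhd1). The 0 higher became 1 with DESeq size factors, a 1.5-fold limit or S cells (Tk1), and 4 in G1 cells (Rrm1, Rrm2, Tk1, Samhd1), where WT has 2 cells and 51.8% of all genes were at least 2-fold higher. By medians over cells, Dck was reversed in mock against WT cells, at 0.41 instead of -1.03. Leaving out each cell in turn, added after seeing the data, gave 2 to 3 members lower and 0 higher in let-7 against mock cells, none either way in miR-294 against mock cells, and 0 to 1 lower (Dck) and 0 to 1 higher (Tk1) in mock against WT cells. Tk1 then ran from -2.27 to -1.91 in let-7 against mock cells. Leaving out the 2 cells whose runs differ or the second cell of each near-identical pair, both added after seeing the data, changed the called members only for Rrm1. Without the cells titled MIR_294_, no member passed 2-fold in miR-294 against mock cells, and Rrm1 was at -0.47 instead of -0.42. Thinning moved the shares of Rrm2b in let-7 (91.1%) and Dck in miR-294 cells (73.7%) beyond their intervals and left 30 others within them. The causes were not tested. With DESeq size factors the median over all genes was 0.17, -0.26 and 0.34 for let-7 against mock, miR-294 against mock and mock against WT cells, against 0.10, -0.06 and 0.17 as reported.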
